A study of Mus musculus with 6 samples.

Results

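Integrin subunits and the proteins of focal adhesions were followed as transcripts in primary mouse fibroblast cultures kept with or without the chemokine CXCL3. The set held 41 genes of the 51912 in the table, namely 24 integrin subunits and 17 adhesion proteins, and each was found by its gene symbol in GENCODE mouse release M21. Of these, 32 reached 1 TPM (a measure of transcript abundance that is corrected for transcript length and scaled to the library total) in at least 3 of the 6 libraries and were tested, and 9 integrin subunits did not. The control group was 3 libraries of primary fibroblasts labelled control and the CXCL3 group was 3 libraries of the same cell type treated with CXCL3. The time was 48 h for all 6 libraries, controls included, and all came from mice aged 6 weeks. The labels used here name no strain, organ, dose or allele, and they do not tell whether the libraries came from separate animals or cultures, so the p-values measure the spread between these libraries, which may be technical.

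Integrins are surface receptors built of 1 alpha and 1 beta chain, and the pairing sets which ligand the receptor binds. Inside the cell, talin and the kindlins bind the beta tail and switch the receptor on, and vinculin, filamin and alpha-actinin join it to actin, while focal adhesion kinase and the complex of ILK, PINCH and parvin carry signals from the site. Fibroblasts are known for integrins that bind fibronectin, vitronectin, collagen and laminin, and leukocytes for the family that shares the beta2 chain.

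Promoter sequences were at hand in the RefSeq table (build GRCm38.p6) for 31 of the 41 genes, and 3 are shown here. The first 2 stand for the beta1 chain, classed here as mesenchymal type, and the leukocyte-type alpha chain most abundant in these cultures. The third is the adhesion protein with the largest fold change, whose promoter held a CArG box, the DNA element of serum response factor. Each line gives the 250 bases before the RefSeq start of the gene, 5′ to 3′ on the gene's own strand. Capitals mark a match, on either strand, to GAGGAA, a core that PU.1 and other ETS factors can bind, or to the CArG box. The windows are Itgb1 at chr8:128685404-128685653 (+), Itgam at chr7:128062390-128062639 (+) and Vcl at chr14:20929148-20929397 (+).
Itgb1: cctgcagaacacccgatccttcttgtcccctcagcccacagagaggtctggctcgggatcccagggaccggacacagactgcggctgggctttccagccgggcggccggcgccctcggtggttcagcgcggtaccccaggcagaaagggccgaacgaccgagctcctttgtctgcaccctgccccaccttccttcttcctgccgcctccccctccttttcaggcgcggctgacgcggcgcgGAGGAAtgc
Itgam: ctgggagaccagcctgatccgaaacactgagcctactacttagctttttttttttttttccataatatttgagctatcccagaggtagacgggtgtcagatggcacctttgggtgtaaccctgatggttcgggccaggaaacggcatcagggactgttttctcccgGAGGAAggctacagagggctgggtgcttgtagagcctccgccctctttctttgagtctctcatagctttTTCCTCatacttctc
Vcl: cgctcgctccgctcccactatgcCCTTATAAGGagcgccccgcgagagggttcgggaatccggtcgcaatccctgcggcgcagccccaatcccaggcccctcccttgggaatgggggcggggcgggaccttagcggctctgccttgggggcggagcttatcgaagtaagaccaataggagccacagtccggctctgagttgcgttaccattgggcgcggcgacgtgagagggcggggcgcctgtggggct
The CArG box was found in the windows of 2 of the 31 members, Vcl and Fermt2, and in 1.40% of the 27025 promoter windows of the same length in the table. GAGGAA was found in 6 members (Itga5, Itga11, Itgav, Itgam, Itgb1 and Tln1) and in 23.1% of all windows, and no member had both motifs. The motifs and windows were chosen after the values had been seen, and a match describes the letters only.

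None of the 32 members tested passed the test of CXCL3 against control libraries. The adjusted p (limma, Benjamini-Hochberg over all 13139 genes tested) ran from 0.378 for Actn4 to 0.985 for Itgb2, and 2 members had an unadjusted p under 0.05 (Actn4 and Itgb7, both with positive fold changes), as did 11.6% of all genes, 5.93% as higher and 5.65% as lower. Of all genes tested, 21 (0.16%) were called, 4 (0.0304%) as higher and 17 (0.129%) as lower, and median-of-ratios scaling gave 0 as higher and 5 as lower. The log2 fold change, CXCL3 minus control on log2(TPM + 1), was positive for 27 members and negative for 5, with a median of 0.16 where the median of all genes was 0.07; with median-of-ratios scaling 21 were positive and 11 negative. This scale understates the change of low genes. A positive value was found for 62.3% of all genes. The groups did not overlap for 2 members (Itga4 and Itgb7, both higher with CXCL3), where 17.2% of all genes tested had groups that did not overlap, 7.92% as higher and 9.31% as lower. Of these 2, Itga4 lay near 1 TPM and met the filter by its CXCL3 values alone.

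Values of a member were spread more widely in the controls, where its log2 value had a median SD of 0.28, than with CXCL3, where this was 0.056, against 0.20 and 0.086 for all genes. Control 1 lay above controls 2 and 3 for 30 of the 32 members (62.8% of all genes) and above all 3 CXCL3 libraries for 23 (48% of all genes). Controls 2 and 3 both lay below every CXCL3 library for 24 members (44.5% of all genes), and for 22 of these control 1 was within or above the CXCL3 range (36.6% of all genes). The median ratio of control 1 to the mean of controls 2 and 3 was 1.38 over the members and 1.17 over all genes. Controls 2 and 3 also stood apart from the other libraries over all genes on the first principal component (52.9% of the variance). Across all genes, which are not independent, the Spearman correlation between transcript length and a library's deviation from the mean was 0.45 in control 1, -0.50 in control 2 and -0.48 in control 3, and 0.20 to 0.40 with CXCL3.

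**Figure D1:**
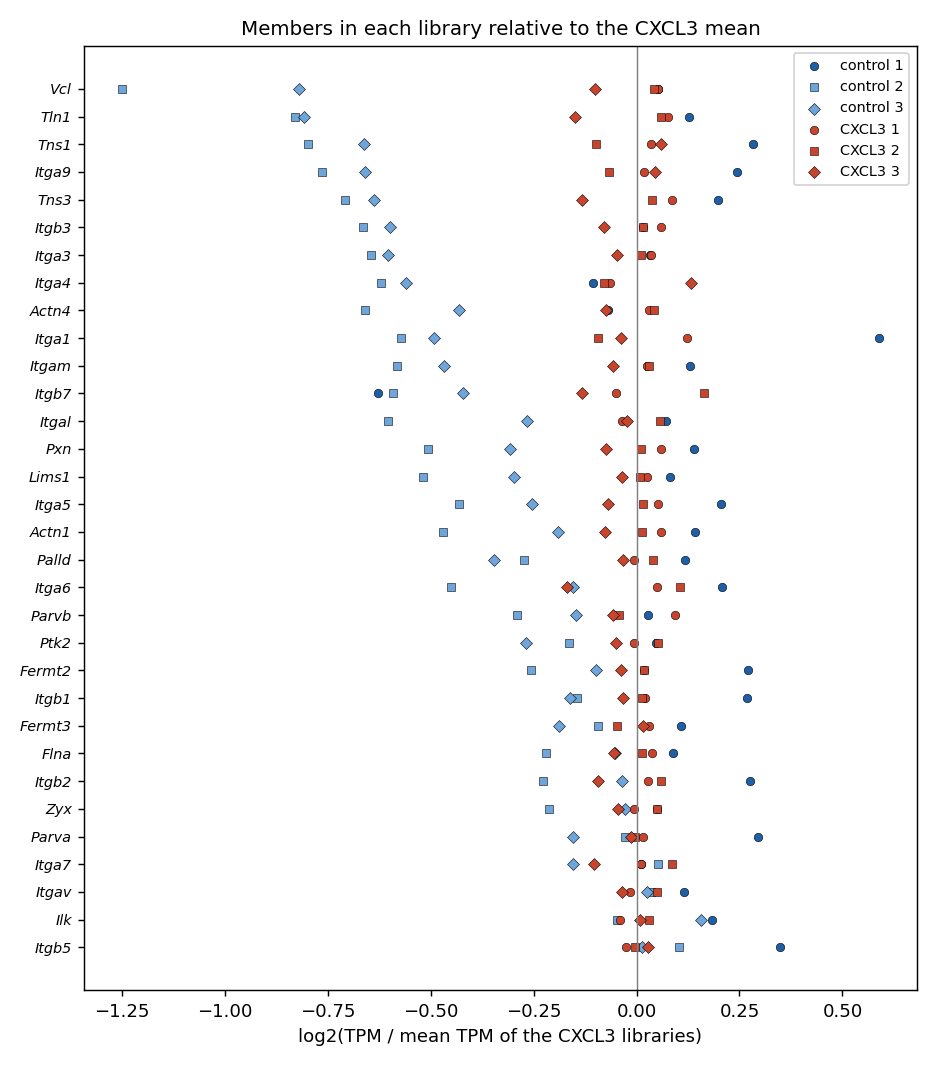
TPM of the 32 members tested in each of the 6 libraries, as the log2 ratio to the mean of the 3 CXCL3 libraries of that gene (x axis); each symbol is a library, and genes are ordered by the mean of controls 2 and 3. For 24 members controls 2 and 3 both sit left of every CXCL3 library, and over all 32 members control 1 sits right of every CXCL3 library for 23.

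The cultures held transcripts of more than one cell type, as markers of each showed. Of 14 macrophage markers, 13 were at 1 TPM or more in every library, and their summed level ran from 16009 to 19051 TPM in controls against from 15539 to 15625 TPM with CXCL3. Of 10 fibroblast markers, 8 were at 1 TPM or more in every library (Lum and Fap were under 1 TPM throughout), with sums of 1784 to 2582 TPM and 1587 to 1671 TPM. All 8 lymphocyte markers were under 1 TPM in every library. Of 7 neutrophil markers only S100a8 was at 1 TPM or more throughout, though at 529 to 669 TPM. Of 5 platelet markers, 2 were at 1 TPM or more in every library, with Pf4 at 935 to 1247 TPM. All 7 pan-leukocyte markers were at 1 TPM or more in every library. Their sums were 1119 to 1144 TPM in controls and 1001 to 1065 TPM with CXCL3. Their log2 fold changes were 6 positive and 1 negative (Cd52, 456 and 307 TPM), with a median of 0.06. The macrophage, fibroblast and pan-leukocyte sums were each lower in every CXCL3 library than in every control. In the fibroblast list 6 log2 fold changes were negative and 2 positive (Pdgfra 0.18 and Pdgfrb 0.03). Its groups did not overlap for 3 genes, all as lower (9.31% of all genes), and they overlapped for Col1a1 and Col1a2. Of these markers, limma called Col3a1 of the fibroblast list (407 and 196 TPM, adjusted p = 0.0293) and Ms4a7 (173 and 114 TPM) and C1qa (289 and 167 TPM) of the macrophage list (adjusted p = 0.0493 for both) as lower with CXCL3. The macrophage list had 10 negative and 4 positive log2 fold changes. Its groups did not overlap for 6 genes as lower and 1 as higher, beside 9.31% and 7.92% of all genes. The higher one was Mrc1, a mannose receptor (11.5 ± 1.80 and 16.98 ± 1.02 TPM, log2 fold change 0.53, limma, adjusted p = 0.248). Most of the summed macrophage level was Lyz2, which encodes lysozyme, at 13260 to 16166 TPM in controls and 13115 to 13244 TPM with CXCL3. The part these cell markers play in the integrin values was not tested. In such bulk libraries fewer cells of a type and less RNA of a gene per cell cannot be told apart.

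Among integrin subunits, Itgb1 was the most abundant transcript, followed by Itga5 and Itgam. Itgb1 encodes the beta1 chain that pairs with most of the alpha chains of fibroblasts (chromosome 8, 128685654 to 128733200, GRCm38). It was at 695, 522 and 515 TPM in controls 1, 2 and 3, against 585, 582 and 563 TPM in CXCL3 libraries 1, 2 and 3. Control 1 was the highest library and controls 2 and 3 the lowest, so that the groups overlapped. The log2 fold change was 0.01 ± 0.12 (SE; 95% interval -0.26 to 0.28; limma, adjusted p = 0.963).

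Itga5 encodes the alpha chain of the fibronectin receptor (chromosome 15, 103344286 to 103366763). Its level was 263, 169 and 191 TPM in controls against 236, 230 and 217 TPM with CXCL3 (log2 fold change 0.16 ± 0.15; limma, adjusted p = 0.612). The controls spanned the CXCL3 values on both sides. Itgav, the alpha chain of the vitronectin receptors, was among the steadiest members at 59.2, 56.0 and 55.6 TPM in controls against 54.1, 56.6 and 53.4 TPM with CXCL3 (-0.06 ± 0.07, limma, adjusted p = 0.695). Chains other than Itgb1 that pair with it were at different levels. Itgb5 was at 105.9 ± 13.0 TPM in controls against 94.6 ± 1.75 TPM with CXCL3 (mean ± SD, n = 3 each; log2 fold change -0.15 ± 0.10), the most negative value of the set. Itgb3 was at 12.6 ± 3.46 and 16.4 ± 0.79 TPM (0.38 ± 0.18; limma, adjusted p = 0.445), with control 1 inside the CXCL3 range and controls 2 and 3 below it. Itgb8 and the epithelial chain Itgb6, further partners of Itgav, were under 1 TPM in every library.

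Laminin receptor chains were led by Itga7, the form known from muscle, at 123.9, 127.5 and 110.4 TPM in controls against 123.8, 130.5 and 114.4 TPM with CXCL3 (log2 fold change 0.03 ± 0.08; limma, adjusted p = 0.878). The 2 groups covered nearly the same range. Itga6 was at 14.3 ± 3.27 and 15.4 ± 1.497 TPM and Itga3 at 9.397 ± 2.62 and 12.2 ± 0.36 TPM (mean ± SD, n = 3 each), while Itgb4, which pairs with the alpha6 chain in epithelial hemidesmosomes, was at 0.67, 0.15 and 0.18 TPM in controls against 0.40, 0.39 and 0.23 TPM with CXCL3. Collagen-binding alpha chains were scarce. The highest of them, Itga1, was at 2.39, 1.07 and 1.13 TPM in controls against 1.73, 1.49 and 1.55 TPM with CXCL3 (0.07 ± 0.22; limma, adjusted p = 0.877), with control 1 above and controls 2 and 3 below all CXCL3 libraries. Itga2 and Itga10 were under 1 TPM in every library, and Itga11 lay between 0.76 and 1.73 TPM and failed the filter. Itga8, which binds nephronectin, was under 1 TPM throughout.

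The alpha4 and alpha9 chains, made by leukocytes and by other cells, were low as well. Itga4 was at 1.00, 0.70 and 0.73 TPM in controls against 1.03, 1.02 and 1.18 TPM with CXCL3. All CXCL3 libraries lay above all controls, though control 1 was close to CXCL3 libraries 1 and 2. The CXCL3 libraries alone met the filter for Itga4, and of the controls only control 1 reached 1 TPM (log2 fold change 0.20 ± 0.15; limma, adjusted p = 0.535). Itga9 was at 6.90, 3.43 and 3.69 TPM in controls against 5.90, 5.56 and 6.01 TPM with CXCL3 (0.32 ± 0.23; limma, adjusted p = 0.524), with the controls on both sides.

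**Figure D2:**
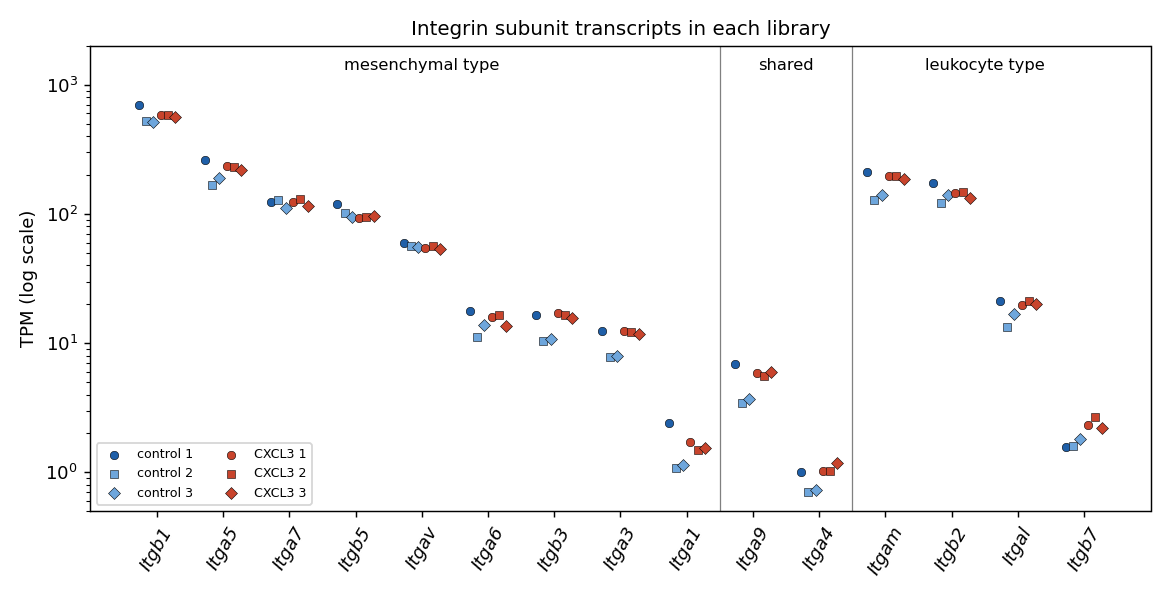
TPM (log axis) of the 15 integrin subunits tested, in each of the 3 control (blue) and 3 CXCL3 (red) libraries. Genes are grouped by class name as mesenchymal type, shared (Itga4 and Itga9) and leukocyte type. A class name does not tell which cells made a transcript. Itgam and Itgb2 sit at the level of Itga5 and Itga7, and Itgb7 and Itga4 are the genes whose groups do not overlap.

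Leukocyte-type integrins were dominated by Itgam and Itgb2, which together encode Mac-1 (complement receptor 3), the receptor of macrophages and neutrophils. Itgam (chromosome 7, 128062640 to 128118491), whose promoter is printed above, was at 212, 129 and 140 TPM in controls against 197, 197 and 186 TPM with CXCL3. Controls 2 and 3 were the lowest libraries and control 1 the highest (log2 fold change 0.30 ± 0.17; limma, adjusted p = 0.475). Itgb2 (chromosome 10, 77530252 to 77565708), the beta chain shared by the leukocyte alpha chains, was at 173, 122 and 139 TPM in controls against 146, 149 and 134 TPM with CXCL3 (-0.01 ± 0.13; 95% interval -0.30 to 0.29; limma, adjusted p = 0.985). Itgal, the alpha chain of LFA-1, was at 17.2 ± 3.98 and 20.3 ± 0.70 TPM (mean ± SD, n = 3 each). Itgax, the alpha chain used as a dendritic cell marker, was at 0.23 to 0.48 TPM, and Itgae at 0 to 0.07 TPM.

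Itgb7, the beta chain of the gut-homing integrin of lymphocytes, was at 1.56, 1.60 and 1.80 TPM in controls against 2.33, 2.70 and 2.20 TPM with CXCL3. All 3 CXCL3 libraries lay above all 3 controls, and here control 1 was the lowest library. The log2 fold change was 0.36 ± 0.14 (95% interval 0.03 to 0.69) and the difference did not pass (limma, adjusted p = 0.416). Its usual partners were low or near 0, namely Itga4 at 0.70 to 1.18 TPM and Itgae.

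The 2 types were compared as summed levels. They are class names, and which cells made each transcript was not tested in these bulk libraries. The 6 leukocyte-type subunits summed to 407, 266 and 298 TPM in controls against 365, 370 and 342 TPM with CXCL3. The 14 mesenchymal-type subunits summed to 1314, 1008 and 1003 TPM in controls against 1141, 1142 and 1089 TPM with CXCL3. In both sums control 1 was the highest library and controls 2 and 3 were the lowest, and the log2 ratio of the group means was 0.15 for the leukocyte type and 0.02 for the mesenchymal type, with no test of the sums. Without controls 2 and 3 these ratios were -0.18 and -0.23. Most of the group difference in the leukocyte-type sum lay in Itgam, at means of 160 TPM in controls and 193 TPM with CXCL3. Itgb2 was at 145 and 143 TPM, Itgal at 17.2 and 20.3 TPM and Itgb7 at 1.65 and 2.41 TPM. Of the members tested, 3 of 4 leukocyte-type and 7 of 9 mesenchymal-type subunits had a positive log2 fold change, with medians of 0.28 and 0.07.

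As a share of all integrin TPM within a library, the leukocyte type made up 23.6, 20.8 and 22.8% in controls and 24.1, 24.4 and 23.8% with CXCL3. The CXCL3 libraries lay above the controls, with control 1 and CXCL3 library 3 nearly equal. Of 10 ratios between members computed within libraries, 4 had groups that did not overlap. Itgam stood to Itgb2 at 1.23, 1.06 and 1.01 in controls and at 1.35, 1.33 and 1.39 with CXCL3, and control 1 was the control nearest to the CXCL3 libraries. Itga5 stood to Itgb1 at 0.378, 0.324 and 0.370 in controls and at 0.404, 0.396 and 0.385 with CXCL3. Itgam stood to Itga5 at 0.807, 0.765 and 0.733 in controls and at 0.834, 0.858 and 0.857 with CXCL3. The fourth, Vcl to Ilk, was 0.394, 0.188 and 0.220 in controls and 0.460, 0.435 and 0.400 with CXCL3. The other 6 ratios had groups that overlapped. Among them, the leukocyte beta2 chain stood to the mesenchymal beta1 chain (Itgb2 to Itgb1) at a mean of 0.251 in controls and 0.247 with CXCL3, and Fermt3 stood to Fermt2 at 0.580 and 0.589. The remaining ratios were Itga7 to Itgb1 (0.212 and 0.213), Itgav to Itgb5 (0.542 and 0.578), Vcl to Tln1 (0.466 and 0.521) and Tln1 to Ilk (0.569 and 0.830). The ratios were chosen after the values were seen and were not tested. The longest transcripts of Itgam and Itgb2 have 4682 and 2970 bases and those of Itga5 and Itgb1 have 4415 and 3815 bases. Those of Vcl and Ilk have 5267 and 2278 bases. In each of the 4 ratios without overlap the gene in the numerator thus had the longer transcript. Of the ratios with overlap, this held for Itga7 to Itgb1, Itgav to Itgb5 and Tln1 to Ilk. It did not hold for Itgb2 to Itgb1, Fermt3 to Fermt2 and Vcl to Tln1.

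**Figure D3:**
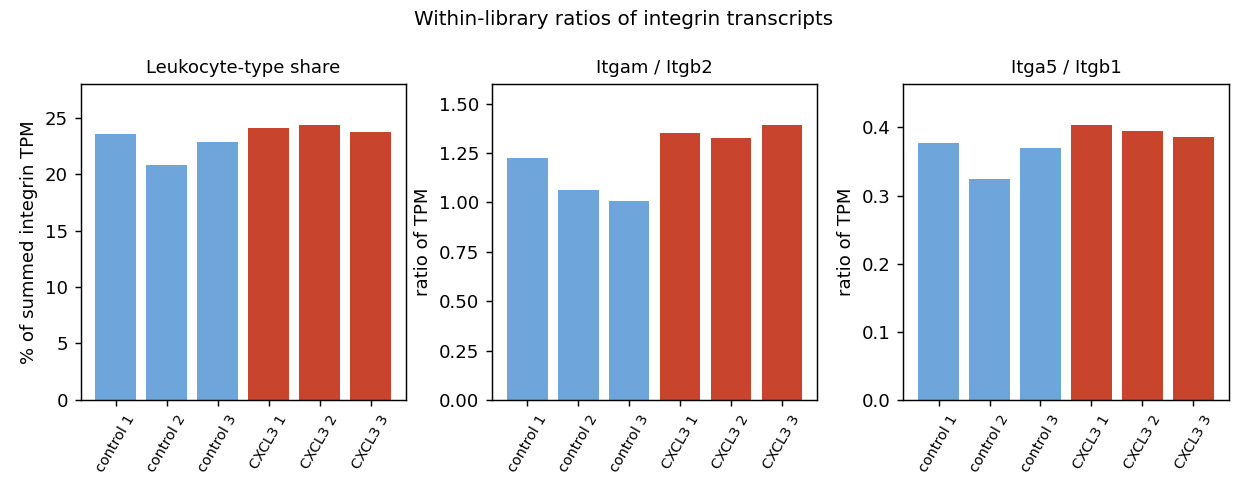
Leukocyte-type share of summed integrin TPM (left), ratio of Itgam to Itgb2 (middle) and ratio of Itga5 to Itgb1 (right) in each of the 3 control and 3 CXCL3 libraries; each bar is a library. The CXCL3 bars are higher than all control bars in each panel, with the smallest gap to control 1.

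All 17 adhesion proteins were tested and none passed; 15 had a positive and 2 a negative log2 fold change, with a median of 0.16. Their summed level was 2743, 2028 and 2269 TPM in controls against 2607, 2600 and 2455 TPM with CXCL3. Vcl encodes vinculin, which strengthens the talin link to actin under force (chromosome 14, 20929398 to 21033676). It was at 60.4, 24.5 and 33.0 TPM in controls against 60.4, 60.03 and 54.3 TPM with CXCL3, and had the largest log2 fold change of the members (0.65 ± 0.28, 95% interval -0.01 to 1.31; limma, adjusted p = 0.429). Control 1 was within the CXCL3 range, and controls 2 and 3 were below every other library. The ratio of control 1 to the mean of controls 2 and 3 was 2.10, and that of the CXCL3 mean to control 1 was 0.965.

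Tln1, the gene of talin-1 (chromosome 4, 43531519 to 43562691), was likewise lowest in controls 2 and 3, with control 1 above the CXCL3 libraries, at 122, 63.1 and 64.0 TPM in controls against 118, 117 and 101 TPM with CXCL3 (log2 fold change 0.49 ± 0.24; limma, adjusted p = 0.457). The kindlin genes were closer to even. Fermt2, the kindlin of fibroblasts and other adherent cells, was at 84.7 ± 16.4 and 85.3 ± 1.88 TPM, and Fermt3, the kindlin of blood cells, at 48.4 ± 5.17 and 50.2 ± 1.45 TPM (mean ± SD, n = 3 each). Fermt2 and Vcl, the members with a CArG box, thus had log2 fold changes of 0.03 and 0.65.

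In the ILK complex, Ilk itself, the pseudokinase scaffold, was at 153, 131 and 150.5 TPM in controls against 131, 138 and 136 TPM with CXCL3 (log2 fold change -0.10 ± 0.08; limma, adjusted p = 0.566), with the CXCL3 libraries inside the control range. Lims1, which encodes PINCH-1, was at 40.3 ± 8.61 and 47.0 ± 1.01 TPM. The parvin genes were at 60.7 ± 10.1 and 58.6 ± 0.59 TPM for Parva and at 13.3 ± 1.47 and 14.5 ± 0.85 TPM for Parvb (mean ± SD, n = 3 each). Of the 4 genes of the complex, 2 had a positive and 2 a negative log2 fold change, with a median of 0.04.

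Zyx, the gene of zyxin, a protein of mature adhesions and stress fibres, was at 461, 384 and 436 TPM in controls against 443, 461 and 432 TPM with CXCL3 (log2 fold change 0.06 ± 0.08; limma, adjusted p = 0.699). The groups overlapped, with control 2 the lowest library. Ptk2, which encodes focal adhesion kinase, was at 31.0 ± 3.52 and 33.8 ± 1.20 TPM, and the scaffold gene Pxn (paxillin) at 48.4 ± 11.4 and 55.5 ± 2.55 TPM (mean ± SD, n = 3 each).

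Among crosslinkers and tensins, Flna was the most abundant member of the whole set. It encodes filamin A, which crosslinks actin and binds beta tails (chromosome X, 74223461 to 74249820), and was at 792, 639 and 718 TPM in controls against 764, 752 and 717 TPM with CXCL3 (log2 fold change 0.06 ± 0.09; limma, adjusted p = 0.733). Of the alpha-actinin genes, Actn4 was at 174, 115 and 135 TPM in controls against 186, 188 and 173 TPM with CXCL3, with control 1 inside the CXCL3 range. Its log2 fold change was 0.38 ± 0.14 (95% interval 0.06 to 0.71; limma, adjusted p = 0.378), the smallest p of the set. Actn1 was at 292.2 ± 62.3 and 324 ± 15.6 TPM. The tensin genes Tns1 (11.9 ± 5.22 and 14.7 ± 0.84 TPM) and Tns3 (77.5 ± 29.1 and 96.8 ± 7.60 TPM) and the palladin gene Palld (86.2 ± 15.5 and 95.7 ± 2.45 TPM; mean ± SD, n = 3 each) had positive values that did not pass (limma, adjusted p = 0.518, 0.486 and 0.530).

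The members with the widest gap between control 1 and the other controls had long transcripts, with exceptions. The ratio of control 1 to the mean of controls 2 and 3 was 2.17 for Itga1, 2.02 for Tns1 and 1.93 for Tln1, whose longest transcripts have 10967, 9966 and 8393 bases. It was 1.17 for Flna (8456 bases) and 1.06 for Itgav (7054 bases), and 2.10 for the shorter Vcl (5267 bases). Across the 32 members the matching difference on log2(TPM + 1) had a Spearman correlation of 0.48 with transcript length, and across all genes of 0.57. The log2 fold change with CXCL3 had a correlation of 0.37 with length across the members and of 0.45 across all genes; genes share libraries and are not independent, so no p is given. With each library's trend on length and GC content removed, 15 members had a positive and 17 a negative log2 fold change, the median was -0.01 and none passed (smallest adjusted p 0.142, limma).

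**Figure D4:**
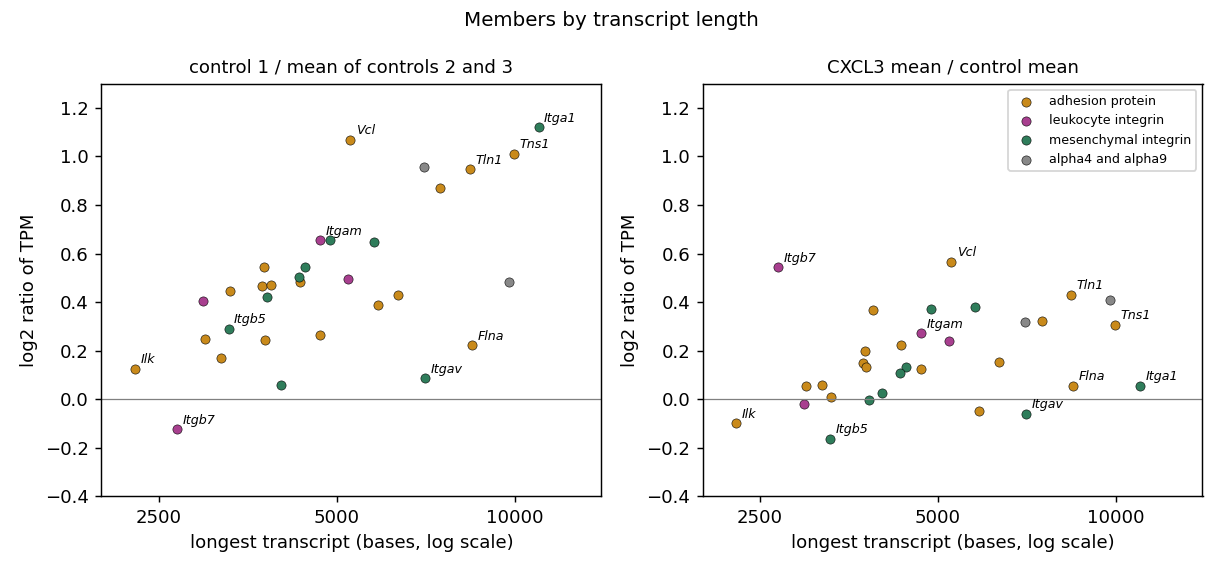
Log2 ratio of TPM of control 1 to the mean of controls 2 and 3 (left) and of the CXCL3 mean to the control mean (right) against the longest transcript in bases (log axis) for the 32 members tested, coloured by class. The long genes Itga1, Tns1 and Tln1 sit high on the left, and Flna and Itgav sit lower at 1.17 and 1.06 before the log.

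The count of members called depended on control 1. Without control 1, limma called 16 of the 32 members, all as higher with CXCL3, beside 25.2% of all genes called as higher and 7.17% as lower. These were Itga3, Itga5, Itga9, Itgal, Itgam, Itgb1 and Itgb3 among integrins, and Vcl, Tln1, Pxn, Actn1, Actn4, Lims1, Tns1, Tns3 and Palld. Vcl had a log2 fold change of 1.01 (adjusted p = 0.00538), Tln1 of 0.81 (0.00414) and Itgam of 0.52 (0.00485) in that fit. With library weights 7 were called as higher (Itga3, Itgam, Itgb3, Vcl, Tln1, Actn4 and Tns3), beside 7.96% of all genes as higher and 3.04% as lower. Without controls 2 and 3, so that control 1 was the only control and was taken to vary like the CXCL3 libraries, no member was called (smallest adjusted p 0.0642, limma, for Itgb1), 29 of 32 had a negative log2 fold change, and Vcl was at -0.05, Tln1 at -0.13 and Itgam at -0.13.

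Other genes of the adhesion pathway were given by lists of scaffolds, signalling proteins, ligands and membrane partners, and none passed. Of 36 further scaffold genes 35 were tested, with 23 positive and 12 negative log2 fold changes and a median of 0.11. The smallest p belonged to Enah, which promotes actin growth at adhesions (57.1 ± 17.6 and 77.8 ± 6.99 TPM, log2 fold change 0.48), Sorbs2 (83.9 ± 24.7 and 112.1 ± 6.35 TPM, 0.45) and Pdlim4 (30.7 ± 2.79 and 26.2 ± 0.58 TPM, -0.22). All 31 signalling genes were tested, with 26 positive and 5 negative and a median of 0.15. Git1, a scaffold that binds paxillin, was at 31.5 ± 4.55 TPM in controls against 37.4 ± 2.27 TPM with CXCL3 (mean ± SD, n = 3 each; log2 fold change 0.25; limma, adjusted p = 0.451). Of the 35 scaffold genes tested, all CXCL3 libraries lay below all controls for 2 (Pdlim4 and Evl) and above them for 0. In the signalling list the groups did not overlap for 2 genes as higher and 2 as lower. Of all genes tested, 7.92% did not overlap as higher and 9.31% as lower.

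Of 14 integrin ligands 11 were tested, with 7 positive and 4 negative log2 fold changes and a median of 0.12. Spp1, which encodes osteopontin, a ligand of alphav and alpha4 integrins, was at 3869, 3554 and 3856 TPM in controls against 4590, 4533 and 4486 TPM with CXCL3, with no overlap (log2 fold change 0.27 ± 0.07; limma, adjusted p = 0.232). Npnt (10.7 ± 3.42 and 14.0 ± 1.16 TPM, 0.40) and Jam2 (7.92 ± 0.71 and 9.37 ± 0.43 TPM, 0.22) came next. Spp1 and Jam2 were the 2 ligands tested whose groups did not overlap, both as higher with CXCL3, beside 7.92% of all genes. Fn1, the gene of fibronectin, was at 3008, 1880 and 2292 TPM in controls against 2662, 2621 and 2401 TPM with CXCL3, on both sides of the CXCL3 values like Itga5. Of the 10 membrane partners, 3 had a positive and 7 a negative log2 fold change, with a median of -0.03. Bsg, of basigin, was at 1137 ± 40.5 and 963 ± 23.5 TPM (-0.24; limma, adjusted p = 0.245), the tetraspanin gene Cd63 at 1840 ± 174 and 1560 ± 7.56 TPM (-0.23; 0.361) and Plaur, of the urokinase receptor, at 196.3 ± 11.6 and 210.4 ± 6.47 TPM (0.10; 0.510). All CXCL3 libraries lay below all controls for 3 of the 10 partners (Bsg, Cd63 and Slc3a2) and above them for 0, beside 9.31% and 7.92% of all genes.

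Several members overlap other annotated genes, and no source used here says whether reads were counted by strand. Vcl overlaps Ap3m1 (mean 44.2 TPM), Tln1 overlaps Creb3 (83.01 TPM) and Ilk overlaps Taf10 (184.4 TPM), each on the opposite strand. Itga1 overlaps Pelo (17.2 TPM) and Itgam overlaps Gm49368 (8.76 TPM) on the same strand. The division of reads between these genes is uncertain.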

How the data were processed

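RNA sequencing of 3 control and 3 CXCL3 libraries was analysed from 1 table of TPM that the authors deposited for 51912 genes, with 0 columns of other samples. Fastp, HISAT, RSEM and the build GRCm38.p5 are named in the submitters' processing notes, without versions or order; annotation release, filters and strand setting are not stated in the labels. TPM keeps no depth, so the read depth is unknown and no counting interval is given. Groups came from the treatment label.

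The 13139 genes with at least 1 TPM in at least 3 libraries were fitted as log2(TPM + 1) by limma (version 3.58.1, under R 4.3.3; eBayes with trend, two-sided, Benjamini-Hochberg over all genes tested, threshold 0.05), a scale that understates changes of low genes. The fit was checked on simulated data in which genes varied independently and both groups had the same spread. That check does not cover the wider spread of the controls here or the shift shared by many genes. Length and position came from GENCODE M21. The fit was repeated under 18 alternatives (pseudocount, filter, scaling, variance model, library weights, replicate block, length and GC trend, libraries left out). Sums and ratios were not tested. All 41 members are named; values of every library are given for members whose groups did not overlap, the highest of each role and 8 key genes, and the pathway genes named are the 3 with the smallest p per list, of which 2 signalling genes are not reported here. Fn1, Itgb5, Itgb3, the cell markers named and the ratios were further choices, made after their values were seen. The members and lists were chosen with earlier results of these data known.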

Additional observations from a re-analysis of the deposited data

How the results depend on the processing

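TPM gives no depth, and 3 libraries per group limit the precision. The count of members called was 0 in the reported fit and in 16 of 18 alternatives, and 7 with library weights; leaving out 1 library gave 0 to 16, the 16 without control 1. Over all genes the count was 21 in the reported fit, 5 under median-of-ratios scaling (0 higher, 5 lower, against 4 and 17), 0 without the low-value filter, 1446 with library weights, 1 when eBayes had no trend, 49 with the length and GC trend removed, 84 without controls 2 and 3, and 0 to 4254 with 1 library left out (4254 without control 1). With a replicate block it was 12, and 0 members were called. Same-numbered libraries correlated at 0.12, -0.01 and 0.08 in their deviations from the group means. Control 1 correlated best with CXCL3 library 1 and control 3 with CXCL3 library 3, while control 2 correlated best with CXCL3 library 3 (0.13). Such low values from 3 libraries per group cannot tell whether the numbers pair the libraries. The cause of these shifts was not tested.

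Without controls 2 and 3 the log2 ratio of summed TPM was -0.18 for leukocyte-type integrins, -0.23 for mesenchymal-type integrins and -0.10 for adhesion proteins. The log2 fold change of 24 members turned its sign in that fit, at -0.39 for Itga1, -0.0297 for Itga3, -0.21 for Itga5, -0.20 for Itga6, -0.0139 for Itga7, -0.21 for Itga9, -0.0688 for Itgal, -0.13 for Itgam, -0.27 for Itgb1, -0.0159 for Itgb3, -0.0529 for Vcl, -0.13 for Tln1, -0.0501 for Zyx, -0.14 for Pxn, -0.14 for Actn1, -0.0895 for Flna, -0.0465 for Ptk2, -0.0789 for Lims1, -0.0272 for Parvb, -0.27 for Fermt2, -0.11 for Fermt3, -0.27 for Tns1, -0.20 for Tns3 and -0.12 for Palld. With the length and GC trend removed 12 turned, at -0.18 for Itga1, -0.0369 for Itga4, -0.0151 for Itga5, -0.0057 for Itga6, -0.13 for Itga7, -0.0795 for Itgb1, -0.0300 for Zyx, -0.22 for Flna, -0.0155 for Ptk2, -0.0319 for Fermt2, -0.0269 for Fermt3 and -0.0621 for Palld. With median-of-ratios scaling 6 turned, at -0.0506 for Itga7, -0.0666 for Itgb1, -0.0151 for Zyx, -0.0184 for Flna, -0.0508 for Fermt2 and -0.0209 for Fermt3. Quantile normalization gave 0.0165 for Itgb2, and library weights gave 0.0805 for Itgb2 and 0.0625 for Parva. With 1 library left out, the value crossed 0 for Itga1 (-0.0542 to 0.30), Itga6 (-0.0299 to 0.28), Itga7 (-0.0344 to 0.0778), Itgb1 (-0.0628 to 0.15), Itgb2 (-0.12 to 0.13), Zyx (-0.0112 to 0.12), Flna (-0.0192 to 0.14), Parva (-0.13 to 0.0902), Fermt2 (-0.0865 to 0.17) and Fermt3 (-0.0077 to 0.14). No sign turned with the other pseudocounts, filters or variance models, or with the replicate block.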
